A study of Mus musculus with 2 samples.

Results

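The miR-29 family was followed on 2 miRNA arrays, 1 hybridised with RNA from germ-free mice and 1 with RNA from specific pathogen-free (SPF) mice. Its members were the probes named for mmu-miR-29a, mmu-miR-29b or mmu-miR-29c, both arms of each hairpin included. This rule gave 7 of the 1900 mouse miRNA probes. The family was chosen by name, but with the intensities of these arrays and the SPF against germ-free differences already known, so those values are given as a description. Both samples were total RNA of mononuclear cells from the lamina propria of the colon of male Balb/c mice. Germ-free animals carry no microbes, whereas SPF animals carry a gut microbiota free of listed pathogens. The labels give no age, no number of animals behind a sample and no treatment. The question put to these arrays was whether miRNA levels in these cells differ with the microbiota. Each group had 1 array, so no difference below has a replicate check, an error between animals or a p-value.

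A miRNA pairs with messenger RNAs mainly through its seed, bases 2 to 8 from the 5′ end, and lowers their translation and stability. The miR-29 family is best known for repressing extracellular matrix genes, among them collagens, elastin and fibrillin, and a fall of miR-29 accompanies fibrosis in several organs. In T cells, miR-29 represses interferon-gamma and the transcription factors T-bet and Eomes, which drive its production. Further targets are the de novo DNA methyltransferases Dnmt3a and Dnmt3b and the survival factor Mcl1. The arm that is loaded and does this work is the 3p arm, while the 5p arm of each hairpin is mostly degraded.

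The mature 3p arms are shown first because they carry both the signal and the shared seed, in capitals. The sequences are those of RefSeq on GRCm38.p6, where all 7 members were matched by name.
miR-29a-3p: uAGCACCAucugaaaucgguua
miR-29b-3p: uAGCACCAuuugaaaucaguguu
miR-29c-3p: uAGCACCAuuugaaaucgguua

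All 3 sequences have the same first 9 bases, counted from the 5′ end. Among 1679 mature mouse miRNAs in the RefSeq table, no other name had the seed AGCACCA. miR-29a-3p and miR-29c-3p differ at 1 of 22 positions, C10U. From miR-29a-3p to miR-29b-3p the changes are C10U, G18A, U21G and A22U over the 22 positions that both have. Only miR-29b-3p of the 3 ends in AGUGUU, an element described as directing nuclear import of miR-29b. The near identity of miR-29a-3p and miR-29c-3p means that each probe may also bind the other miRNA. How far the probes separate them was not analysed here.

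The 5p arms do not share a seed. They are shown because they tell apart the pair of hairpins that give the same miR-29b-3p, with bases 2 to 8 again in capitals.
miR-29a-5p: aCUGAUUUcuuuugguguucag
miR-29b-1-5p: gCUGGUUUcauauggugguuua
miR-29b-2-5p: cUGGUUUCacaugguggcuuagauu
miR-29c-5p: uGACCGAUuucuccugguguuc

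The family comes from 4 hairpins at 2 loci. Mir29a (chr6:31062660-31062747) and Mir29b-1 (chr6:31063023-31063093) lie on the minus strand of chromosome 6, separated by 275 bases. In GENCODE M21, on GRCm38, no other gene covers Mir29a, and the lincRNA Gm27019 overlaps Mir29b-1 by 2 bases on the same strand. Mir29b-2 (chr1:195037040-195037120) and Mir29c (chr1:195037547-195037634) lie on the plus strand of chromosome 1, separated by 426 bases. Both are inside exon 3 of a transcript of the noncoding gene A330023F24Rik, on its strand. On the other strand, both are inside the untranslated part of exon 11 of Cd46. The chromosome 6 hairpins are shown with their mature arms in capitals, to place the bright 3p arm and the dim 5p arm on one precursor.
Mir29a: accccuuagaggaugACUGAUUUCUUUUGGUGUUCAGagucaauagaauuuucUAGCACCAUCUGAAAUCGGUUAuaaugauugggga
Mir29b-1: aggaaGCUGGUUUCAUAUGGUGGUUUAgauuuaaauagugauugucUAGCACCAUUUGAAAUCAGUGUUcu

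The values below are net spot intensities, in arbitrary units. The mean of the blank spots of the array (128.5 germ-free, 158.3 SPF) was subtracted, and SPF values were then multiplied by 0.849 so that the median probe above the floor had the same level on both arrays. The floor was 2 SD of the blank spots above their mean, a net 9.05 for germ-free and, before scaling, 10.7 for SPF. It is a permissive limit: spots that hold no probe reached a mean + 2 SD of 37.2 and 43.9 in net intensity. Each miRNA probe has 1 spot. Repeated spots of 5 bright control probes had a pooled SD of 0.0908 on the log2 scale within an array, which gives 0.128 for a difference between 2 bright spots. That figure holds spot-to-spot spread only and none between RNA extractions, labellings, hybridisations or animals.

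All 3 of the 3p arms were bright on both arrays and lower on the SPF array, with log2 differences from -0.70 to -0.50. miR-29a-3p had a net intensity of 7143 in the germ-free sample and, after scaling, of 4409 in the SPF sample. Among the 1900 miRNA probes it ranked 31 in brightness in the germ-free sample and 55 in the SPF sample. Its log2 SPF over germ-free was -0.70, a germ-free level 1.62-fold that of the SPF array. miR-29c-3p, encoded on the other chromosome, stood at 1909 and 1204, a log2 difference of -0.67 or 1.59-fold. miR-29b-3p, which both loci produce, stood at 2148 and 1517, a log2 difference of -0.50 or 1.42-fold. The 3 differences exceeded the spot-to-spot SD of 0.128. Whether they exceed the spread between animals or between arrays cannot be told from 1 array per group.

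None of the members reached a 2-fold difference. Over the 1471 miRNA probes above the floor on both arrays, 1.43% were at least 2-fold lower and 1.56% at least 2-fold higher on the SPF array. At 1.5-fold, miR-29a-3p and miR-29c-3p were lower and no member was higher, with 7.61% of the 1471 probes at least 1.5-fold lower and 4.62% at least 1.5-fold higher. Among the 735 shared probes brighter than the median, where the 3p arms lie, 4.9% were at least 1.5-fold lower and 3.13% at least 1.5-fold higher. At 2-fold these shares were 0.952% and 1.63%. The median of the 3p arms was -0.67, and the median of all 1471 shared probes was -0.06. Of the 735 brighter probes, 19 had a lower log2 difference than miR-29a-3p, 22 a lower one than miR-29c-3p and 55 a lower one than miR-29b-3p. The 3p arms thus lie in the lower tail of the bright probes, though many single probes lie as low. A lower value was common in itself, with 57.6% of all shared probes and 60.1% of the brighter ones below 0.

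**Figure D1:**
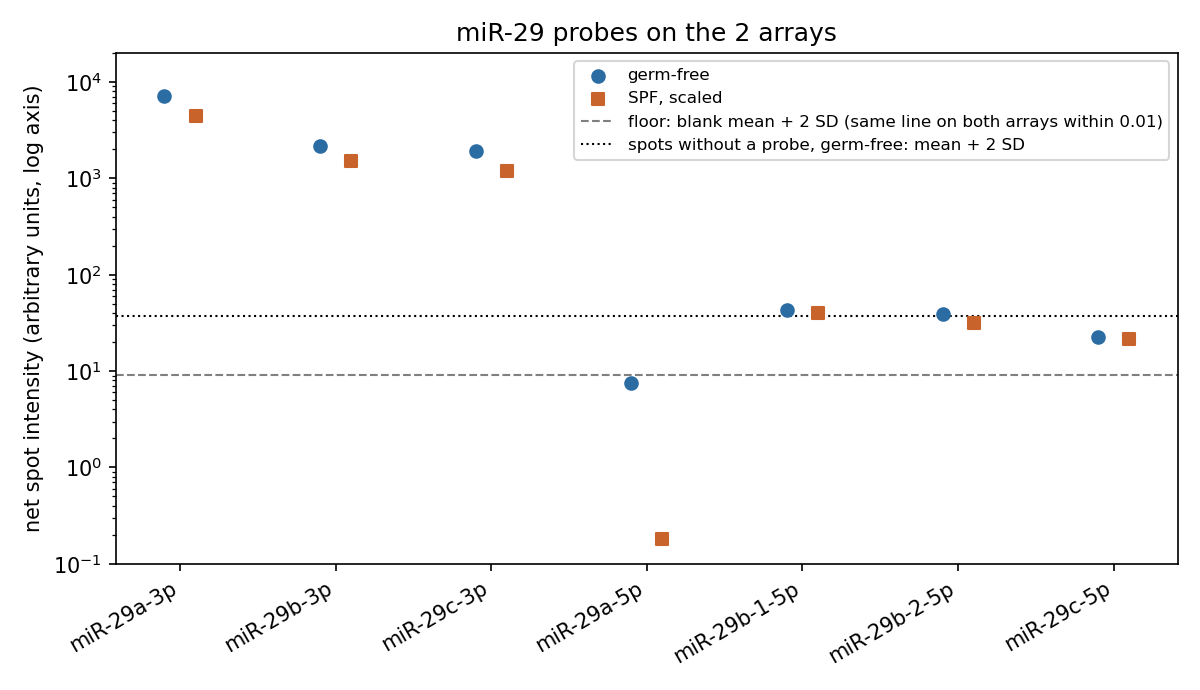
Net spot intensity (arbitrary units, log axis) of the 7 miR-29 probes on the germ-free array (circles) and, after scaling, on the SPF array (squares), 1 spot per point and no error bars. The 3p arms lie between 1204 and 7143, each lower on the SPF array, while every 5p arm is at 43.6 or less and miR-29a-5p is under the floor (dashed line) on both arrays.

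**Figure D2:**
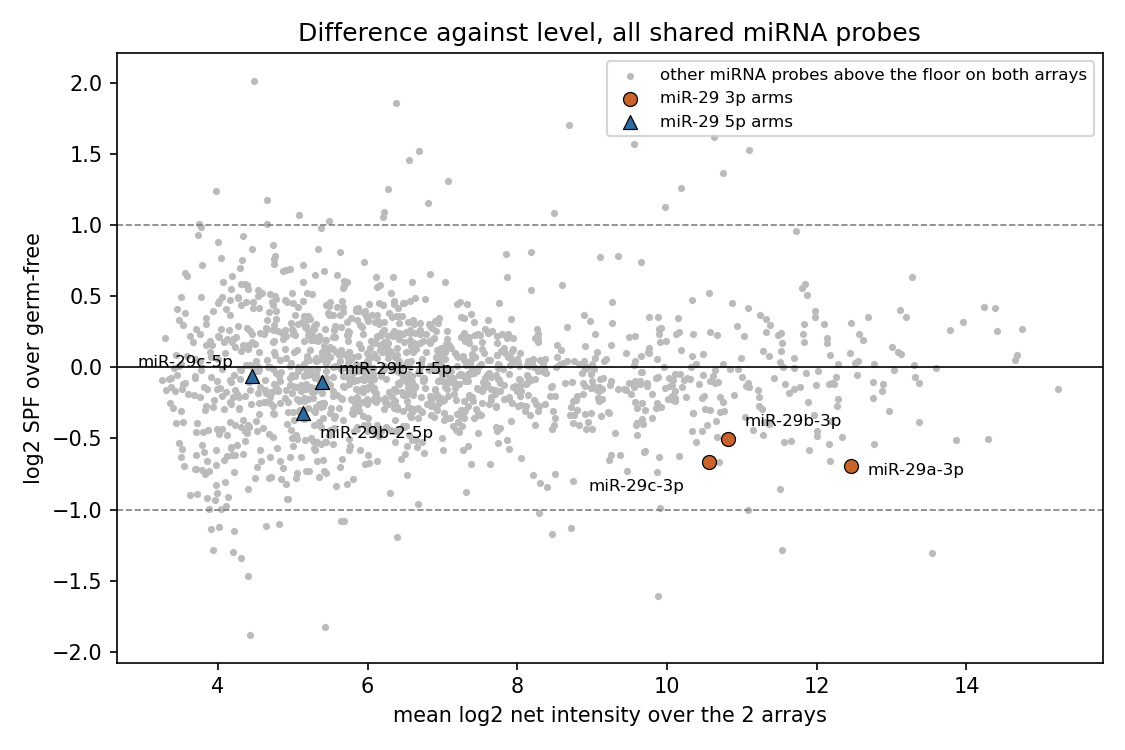
Log2 SPF over germ-free against the mean log2 net intensity of the 2 arrays for the 1471 miRNA probes above the floor on both, with dashed lines at 2-fold. The 3p arms of miR-29 (orange circles) lie at -0.50 to -0.70 among the bright probes, and the 3 measurable 5p arms (blue triangles) lie at -0.06 to -0.32 among the dim ones.

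The 5p arms gave little signal. miR-29a-5p had an unscaled net intensity of 7.46 (germ-free) and 0.216 (SPF), both under the floor, so it has no difference. miR-29b-1-5p, from chromosome 6, stood at 43.6 (germ-free) and 40.5 (SPF), a log2 difference of -0.10. miR-29b-2-5p, from chromosome 1, stood at 39.4 and 31.5, a difference of -0.32. miR-29c-5p stood at 22.4 and 21.5, a difference of -0.06. These were thus all close to the level of spots that hold no probe. miR-29b-1-5p lay above that level on both arrays, miR-29b-2-5p in the germ-free sample alone, and miR-29c-5p on neither array.

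At such levels the spread of the blank spots adds to the spot-to-spot SD. The combined technical SD of the difference came to 0.25 for miR-29b-1-5p, 0.30 for miR-29b-2-5p and 0.44 for miR-29c-5p. The differences of miR-29b-1-5p and miR-29c-5p were within that SD, and the difference of miR-29b-2-5p was about as large as it. The directions of miR-29b-1-5p and miR-29c-5p also flipped with the processing, to 0.13 and 0.18 without scaling between the arrays and to 0.19 and 0.16 with local background subtraction. miR-29b-1-5p was also at 0.14 after correction for block medians, and miR-29c-5p at 0.01 with loess scaling or no background subtraction. The 5p arms therefore do not separate the chromosome 6 source of miR-29b from the chromosome 1 source at this depth of signal.

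On each hairpin the 3p probe was brighter than the 5p probe, and most of the ratios are lower bounds because the 5p arms lay at or under the level of spots that hold no probe. Against that level, miR-29c-3p was at least 51.3-fold brighter than miR-29c-5p for germ-free and at least 32.3-fold for SPF RNA. miR-29a-3p was at least 192-fold and 118-fold brighter than miR-29a-5p. miR-29b-3p, the product of 2 hairpins, was 49.3 and 37.4 times as bright as miR-29b-1-5p, which lay just above that level. Against miR-29b-2-5p it was 54.6 times as bright for germ-free RNA and at least 40.7-fold brighter for SPF RNA. Ratios between probes also hold each probe's own binding strength, so they are not ratios of molecules.

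Ratios within an array do not depend on the scaling between arrays. Of the summed net signal of the 3p probes, miR-29a-3p held 63.8% in the germ-free and 61.8% in the SPF sample. The share of miR-29b-3p was 19.2% and 21.3%, and that of miR-29c-3p was 17.0% and 16.9%. The makeup of the family signal was thus close on the 2 arrays. The log2 ratio of miR-29a-3p to miR-29c-3p was 1.90 for germ-free and 1.87 for SPF RNA, a change of -0.03. For miR-29a-3p over miR-29b-3p it was 1.73 and 1.54, a change of -0.19. For miR-29b-3p over miR-29c-3p it was 0.17 and 0.33, a change of 0.16. The spot-to-spot SD of such a change is 0.18, so the first was well within it and the others were about as large as it. Within the family, the miR-29a-3p probe was the brightest on both arrays, followed by miR-29b-3p and miR-29c-3p, an order that also holds each probe's own binding strength. Summed over its 7 probes, the family held 1.10% of all net miRNA signal in the germ-free sample and 0.719% in the SPF sample.

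The surroundings of the spots differed between members. miR-29c-3p and miR-29a-3p were printed side by side in block 12 of the array, and miR-29b-3p in block 22. The median difference of the shared probes was -0.12 over 50 probes of block 12 and -0.09 over 49 probes of block 22, members included. After the median of each block was subtracted, miR-29a-3p was at -0.57, miR-29c-3p at -0.54 and miR-29b-3p at -0.41. The family result is thus nearly as large within blocks. Single spots next to miR-29a-3p or miR-29c-3p varied: miR-1839-3p was at -0.81, miR-1906 at -0.41, miR-1896 at -0.22, miR-665-3p at -0.01 and miR-141-5p at 0.52. Next to miR-29b-3p, miR-30a-5p was at -0.22, miR-691 at -0.18 and miR-690 at 0.41. The part of the position on the array was not tested. The local background around the spots was high, at 72.0% of the spot intensity of miR-29a-3p in the germ-free scan and 84.0% in the SPF scan. For miR-29c-3p it was 46.1% and 63.4%.

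For miR-29b-3p the local background was 112% of the spot intensity in the germ-free scan and 18.2% in the SPF scan. This local background was 2542 in the germ-free and 353 in the SPF scan. The neighbours of miR-29b-3p on the array include the bright miR-690 spot, with intensities of 18683 (germ-free) and 29274 (SPF). The part of that spot in the local background was not tested. A local background above the spot itself was found at 30 of 320 miRNA spots brighter than 500 in the germ-free scan and at 5 of 347 in the SPF scan. With this local value taken off each spot instead of the blank mean, miR-29a-3p was at -1.68 and miR-29c-3p at -1.36, and miR-29b-3p had no value. The SD of the repeated control spots under that setting was 1.29, which gives 1.83 for a difference between 2 spots. Both values lie within that SD, so neither their size nor their direction is resolved there. Of the 1864 miRNA probes with a value under that setting, 5.58% were at least 2-fold lower and 6.06% at least 2-fold higher.

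**Figure D3:**
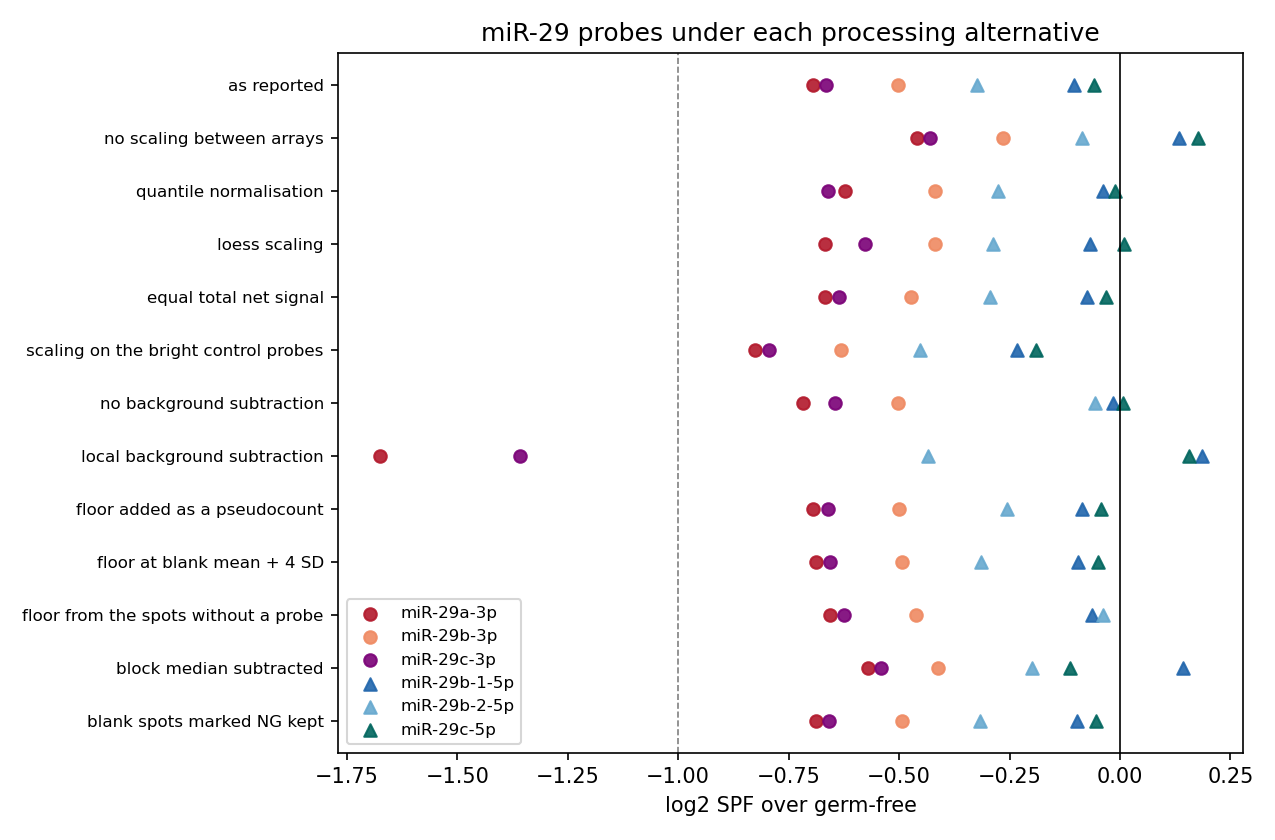
Log2 SPF over germ-free of the 6 measurable miR-29 probes as reported (top line) and under each of 12 processing alternatives, with circles for 3p arms and triangles for 5p arms. All values of the 3p arms lie below 0, from -0.27 to -1.68, whereas miR-29b-1-5p and miR-29c-5p lie on either side of 0.

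The probes most like each member were those with the shortest distance between the pairs of log2 intensities on the 2 arrays, which is a likeness over 2 values only. For miR-29a-3p they were miR-26a-5p (6109 and 4346, a distance of 0.23), miR-451a (5447 and 4505, 0.39) and miR-142a-5p (5799 and 3681, 0.40). For miR-29c-3p they were miR-3068-3p (0.19), miR-1892 (0.19) and miR-106a-5p (0.20). For miR-29b-3p they were miR-5627-5p (0.16), miR-3068-3p (0.20) and miR-5620-5p (0.21). The dim 5p arms had nearer neighbours, as that region of intensities is crowded. miR-7059-3p (0.02), miR-6949-3p (0.05) and miR-7049-3p (0.06) were nearest to miR-29b-1-5p. miR-1957a (0.03), miR-761 (0.04) and miR-7225-3p (0.06) were nearest to miR-29b-2-5p, and miR-542-5p (0.05), miR-337-3p (0.06) and miR-6965-3p (0.07) to miR-29c-5p.

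Other miRNAs with roles close to those of miR-29 did not all move as its 3p arms did. In the list of T cell cytokine regulators, 6 of 11 members were higher and 5 lower on the SPF array, with a median of 0.03. miR-148a-3p, which T-bet induces in Th1 cells, was at 1.70, and miR-21a-5p, abundant in activated T cells, at 0.96. miR-27b-3p, a regulator of Th2 cells, was at 0.53, and miR-10a-5p, known from regulatory T cells, was lower at -1.13. The median of the list lay on both sides of 0 with the processing. It was -0.10 with scaling on the control probes, -0.09 over all arms and -0.0072 without background subtraction, against 0.27 without scaling and 0.64 with local background subtraction.

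In the list of extracellular matrix and fibrosis regulators, 7 of 14 members were higher and 7 lower, with a median of -0.10. The members with the largest differences were miR-192-5p at 1.62, miR-200b-3p at 1.53, miR-200a-3p at 1.26 and miR-200c-3p at 1.12. They are also abundant in epithelium. The median of this list was above 0 without scaling (0.14), with local background subtraction (0.40) and after block correction (0.04). In the list of miRNAs that target DNA methylation or related chromatin enzymes, 3 of 8 members were higher and 5 lower, with a median of -0.16. Here miR-148a-3p, which targets Dnmt1, was at 1.70, miR-101a-3p, which targets Ezh2, at -1.08, and miR-26a-5p and miR-26b-5p at -0.49 and -0.48. That median was 0.08 without scaling, 0.03 when spots lacking a probe set the floor and -0.01 over all arms. Among the 5 lower members was miR-143-5p at -0.01, the brighter arm of its precursor. The other arm, miR-143-3p, was higher on the SPF array, so the split into higher and lower members depended on the arm taken.

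Markers of the cell types that the isolate can hold differed between the arrays too. Of the lymphocyte markers, 6 of 7 were lower on the SPF array, with a median of -0.58. Their summed net intensity was 21365 in the germ-free sample and, after scaling, 9396 in the SPF sample, most of it from miR-150-5p. Without miR-150-5p the sums were 2666 and 1844, and the median of the other 6 markers was -0.47. miR-150-5p, a miRNA of mature lymphocytes, was at -1.31, miR-181a-5p at -0.73, miR-342-3p at -0.59 and miR-181c-5p at -0.58. The lymphocyte median was -0.35 without scaling, -0.29 without background subtraction and -0.37 over all arms. Subtracting the local background put it at 0.41, without miR-150-5p, whose local background exceeds its germ-free signal.

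Of the intestinal epithelium markers, 9 of 10 were higher, all of them at least 2-fold, with a median of 1.21 and a summed net intensity of 5727 and 14820. Over the 1471 shared probes, 1.56% were at least 2-fold higher. The exception in the list was miR-375, with its brighter arm miR-375-5p at -0.23 and miR-375-3p at -0.01. With local background subtraction the median of the epithelium list was 0.65. miR-192-5p and miR-200b-3p are named above, miR-429-3p was at 1.57 and miR-194-5p at 1.36. No marker of either list lay under the floor. Both leukocyte and epithelial miRNAs were therefore present on the 2 arrays labelled as mononuclear cells. Of 4 myeloid and pan-leukocyte markers, 2 were higher and 2 lower (median 0.04). miR-142a-5p, found throughout blood cells, was at -0.66, miR-223-3p of neutrophils and monocytes at 0.74, and the dim miR-147-3p and miR-511-5p at 0.93 and -0.72. The median of the myeloid and pan-leukocyte list was -0.09 with scaling on the control probes, 0.28 without scaling and 0.24 with local background subtraction. It was 0.04 over all arms. Of 7 measured stromal and endothelial markers, 3 were higher and 4 lower (median -0.01), with miR-10b-5p at -1.17, miR-100-5p at -0.41, miR-214-3p at -0.34 and miR-145a-5p at 0.32. Their median was 0.22 without scaling, 0.15 with local background subtraction and 0.17 after block correction. Over all arms it was -0.07. The member at the median was miR-143-5p at -0.01, the brighter arm of its precursor. The other arm, miR-143-3p, was higher on the SPF array. The split into higher and lower markers and the direction of this median thus depended on the arm taken.

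miR-29 is expressed in many cell types, lymphocytes and stromal cells included. The part of the cell makeup in the lower 3p arms was not tested. In a bulk sample, fewer cells of a type and less RNA per cell cannot be told apart.

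**Figure D4:**
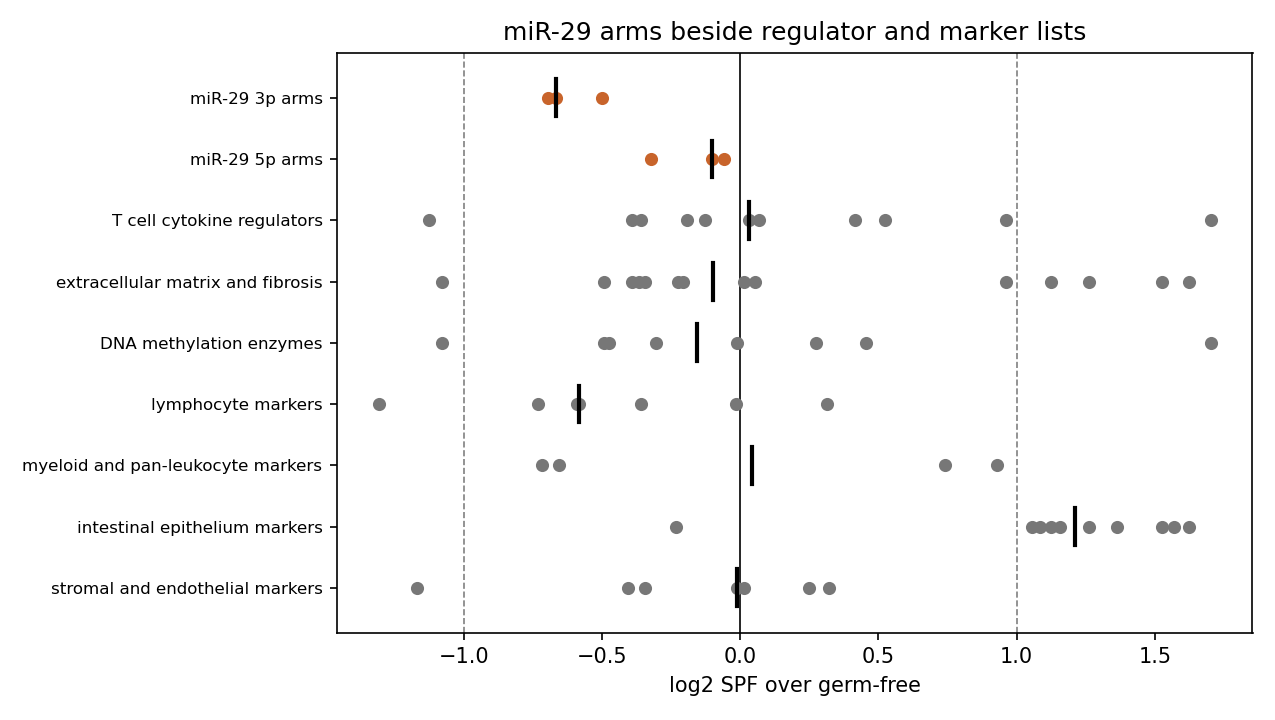
Log2 SPF over germ-free of the miR-29 arms (orange) and of each measured member of 7 regulator and marker lists (gray), with a black bar at each median and dashed lines at 2-fold. The median is -0.67 for the miR-29 3p arms and -0.58 for the lymphocyte markers, whose members spread from -1.31 to 0.31. It is 1.21 for the intestinal epithelium markers, from -0.23 to 1.62.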

How the data were processed

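Per the labels, total RNA was extracted with a Qiagen kit, and Hy5 was attached with a labelling kit of Exiqon. Per the file headers, the deposited values are median spot intensities and median local background intensities at 635 nm, from scans at 3 gains. No array platform, probe sequence or miRBase release is given in the sources used here. The arrays hold 3200 spots in 32 blocks, with 896 blank spots, of which 1 on the SPF array was marked NG and left out.

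Net intensity, floor and scaling were computed as described above with Python 3.11.15 and numpy 2.4.6. A value under the floor on 1 array would be set to the floor. With 1 array per group no test was run. Each list took, per precursor, its brighter arm. Named miRNAs were all members, the 3 nearest probes to each and up to 4 members of each list with the largest differences. The miR-690 spot and the other measured neighbours of the 3p arms were named besides. So were both arms of miR-143 and miR-375, and miR-142a-3p. The members and lists were chosen with earlier results of these data known. The calculation was tested on simulated arrays with 200 changed probes. The alternatives were 5 other scalings, 2 other backgrounds, a pseudocount, 2 other floors, block correction, keeping the blank spot marked NG, a 1.5-fold threshold and all arms of each list.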

Additional observations from a re-analysis of the deposited data

How the results depend on the processing

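The 3p arms of miR-29 were below 0 under every alternative that gave a value, 12 for miR-29a-3p and miR-29c-3p and 11 for miR-29b-3p, although the values with local background subtraction lie within its SD. Their median of -0.67 was -0.43 without scaling, -0.80 with scaling on the control probes and -1.52 with local background subtraction, where miR-29b-3p had no value. The first of these scalings put the median of all shared probes at 0.18 and the second at -0.19. Relative to that median, miR-29a-3p was at -0.64 under both, miR-29c-3p at -0.61 and miR-29b-3p at -0.45. A scaling factor moves every probe alike, so the equality of these values under both settings was fixed in advance. The median of the 5p arms, -0.10, was 0.13 without scaling and -0.23 with scaling on the control probes, so its direction depended on the scaling. Settings without the blank background give miR-29a-5p a value as well, and it enters the median there. The number of members at least 2-fold different, 0, was 2 with local background subtraction, where 5.58% of all probes with a value were at least 2-fold lower and the SD of a difference was 1.83, and 2 at the 1.5-fold threshold. The family share of the miRNA signal, 1.10% (germ-free) and 0.719% (SPF), was 0.962% and 0.648% without background subtraction and 0.782% and 0.414% with local background subtraction. The shifts without scaling and with scaling on the control probes follow from the scaling factor. The cause of the shifts under other backgrounds was not tested. With 1 array per group, no array could be left out. No paired analysis was possible because each group has 1 array and no test was run. The 5p arms are limited by signal close to the background.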
